A study of Arabidopsis thaliana with 8 samples.

Results

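The plastid-encoded loci of the *Arabidopsis thaliana* root were examined as 1 set of genes across dark-grown seedlings and seedlings with lit shoots. The set held every locus of the count table whose identifier begins with ATCG and whose counts summed to at least 50 over the 8 libraries. This rule kept 91 of the 133 plastid loci, in a table of 33602 loci. The 91 loci held between 99.993% and 99.997% of the plastid counts as group means, and each of the 91 had a count in every library.

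RNA-seq had been made from primary roots of wild-type Col-0 seedlings, with no transgene or mutation in any group. In the dark groups the plates were fully wrapped in aluminium foil. In the other groups the root was kept dark in a modified D-Root device and the shoot alone received white light at 130 µmol for 16 h of each day, followed by 8 h of darkness. Roots were taken at 4 or 7 days, which gave 4 groups of 2 libraries, each from an independent sample of about 70 pooled seedlings. All groups shared 21 °C, sucrose-free half-strength medium, a dark root, and depletion of ribosomal RNA with RiboZero before library preparation, so that RNA without a poly(A) tail could enter the libraries.

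Plastids carry a small circular genome of their own, which encodes subunits of the photosynthetic complexes, part of the plastid ribosome and of the plastid RNA polymerase, and transfer and ribosomal RNAs. Its genes often lie in clusters that are transcribed together, by a plastid-encoded polymerase that needs nuclear sigma factors and by phage-type polymerases made from nuclear genes. Root plastids are mostly colourless, and Arabidopsis roots can form some chlorophyll when they are exposed to light. Whether lighting the shoot alone changes the plastid transcripts of a dark root is what the lit-shoot and dark groups let one compare.

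Library totals ran from 25326045 to 30555290 counts. All 8 root markers examined (CASP1, SCR, SHV2, SHR, RHD6, PLT1, SMB and WOX5) had counts in every library, with levels in CPM (counts scaled by library size and TMM factor, as described under processing). They summed to 225 and 297 CPM in the dark at 4 days, 120 and 139 CPM in the dark at 7 days, 343 and 316 CPM with lit shoots at 4 days, and 189 and 207 CPM with lit shoots at 7 days. By the test described below, 5 of the 8 (62.5%) fell with age in the dark and 3 (37.5%) with lit shoots. Of all tested loci 18.3% and 2.1% did so. With lit shoots against dark, 2 markers rose and 1 fell at 4 days, and 3 rose and 1 fell at 7 days. SHV2 rose most, by 3.76 and 6.32 on the log2 scale. The part of these marker changes in the results below was not tested. The 16 shoot markers summed to 38.8 to 69.9 CPM, most of it from the epidermal wax gene KCS10. Without KCS10 they summed to 2.21 to 9.97 CPM in the dark libraries, 4.56 and 4.67 CPM in the libraries of lit shoots at 4 days, and 15.6 and 22.5 CPM in those of lit shoots at 7 days. Between 7 and 10 of the 16 had no count in a given library, among them the guard-cell genes MUTE, FMA and EPF1 in all 8. The higher sum at 7 days with lit shoots came mostly from PDF1, an epidermal gene, at 12.6 CPM against 0.0782 CPM in the dark at the same age, and its part in the 7-day results below was not tested. These are bulk libraries, so that fewer plastids or plastid-bearing cells and less plastid RNA per cell cannot be told apart.

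The deposited table gives plastid loci by identifier alone, and the gene table used here does not pair these identifiers with gene names. Members are therefore called by identifier, and no role is given, except where a reference note on a nuclear locus names the plastid protein that it resembles. This applied to 5 members. ATCG00670 is noted as the plastid-encoded CLP P, a subunit of the Clp protease. ATCG00660 is noted as ribosomal protein L20 and ATCG00750 as ribosomal protein S11, both of the plastid ribosome. ATCG00530 is noted as CemA-like proton extrusion protein-related. ATCG00430 is noted as photosystem II reaction center protein G, in a note on a nuclear subunit of mitochondrial complex I. That name comes from the note alone and was not checked, so ATCG00430 is not taken here as a photosystem II gene. Counts are per locus and the lengths of these loci are not known here, so that a larger count is not a higher level per base.

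The 42 plastid loci under 50 counts were not scattered along the table. In the order of the table, which follows the identifiers except that ATCG00065 stands between ATCG00660 and ATCG00670, a run of 18 loci from ATCG00830 to ATCG00990 held 15 counts in all, and 12 of them had none. A second run of 18 loci, from ATCG01140 to ATCG01310, held 12 counts, and 13 had none. The limit of fewer than 20 counts that defines these runs was set after the counts were seen. In the RefSeq plastid genome of TAIR10.1, 154478 bases long, the longest exact inverted repeat spans 26264 bases, and 16 genes lie wholly inside the one copy and 17 inside the other. How reads with several matches were counted is not given in the sources used here, and whether the runs are the loci of the repeat was not tested. Just above the limit of 50 stood ATCG00230 and ATCG00390 with 53 counts each and ATCG00310 with 63. Just below it stood ATCG00460 with 30 counts, ATCG00110 with 27 and ATCG00060 with 21.

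**Figure D1:**
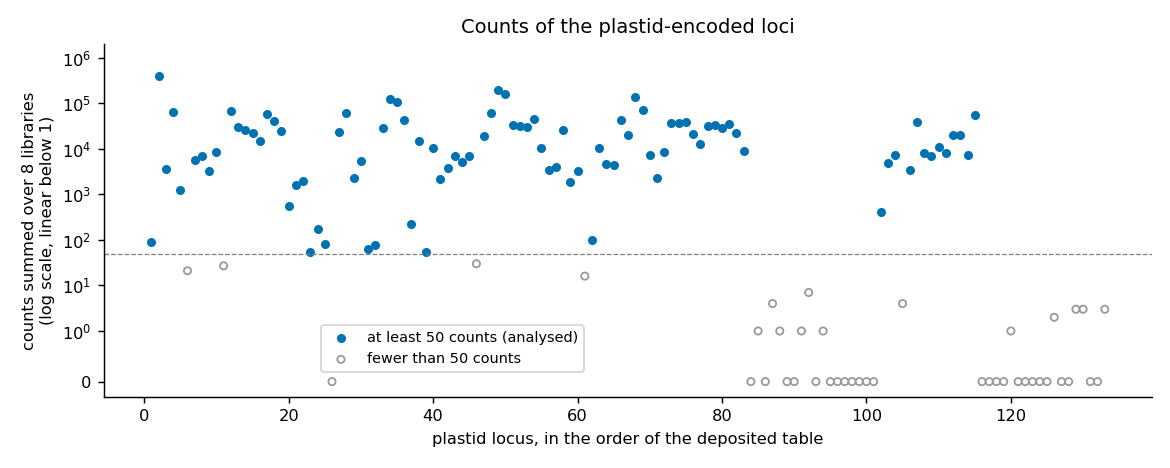
Counts summed over the 8 libraries for each of the 133 plastid loci, on a log axis that is linear below 1, in the order of the deposited table. Filled points are the 91 loci with at least 50 counts (dashed line), and open points are the other 42, most of which lie in the pair of runs of 18.

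The plastid-encoded loci took a larger share of the counts in roots of lit shoots than in dark roots. The share was 0.970% and 0.911% of the library in the dark libraries at 4 days and 0.975% and 0.840% in those at 7 days. With lit shoots it was 1.71% and 1.31% at 4 days and 1.45% and 1.49% at 7 days. All 4 lit libraries lay above all 4 dark ones, and the share is given as a description with no test. The mitochondrion-encoded share beside it was 8.68% and 10.5% in the dark at 4 days, 4.59% and 5.09% in the dark at 7 days, 4.53% and 3.89% with lit shoots at 4 days, and 6.46% and 2.66% with lit shoots at 7 days. The order of the plastid shares was therefore not the order of the mitochondrial ones.

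One locus, ATCG00020, made up a large part of this difference. It took 25.3% and 17.7% of the plastid counts in the lit libraries at 4 days and 24.8% and 18.2% in those at 7 days. In the dark it took 3.25% on average at 4 days and 2.90% at 7 days. Without it the plastid share was 0.936%, 0.883%, 0.948% and 0.813% in the dark libraries and 1.27%, 1.08%, 1.09% and 1.22% in the lit ones. The lit libraries were thus still above the dark ones, by a smaller margin.

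**Figure D2:**
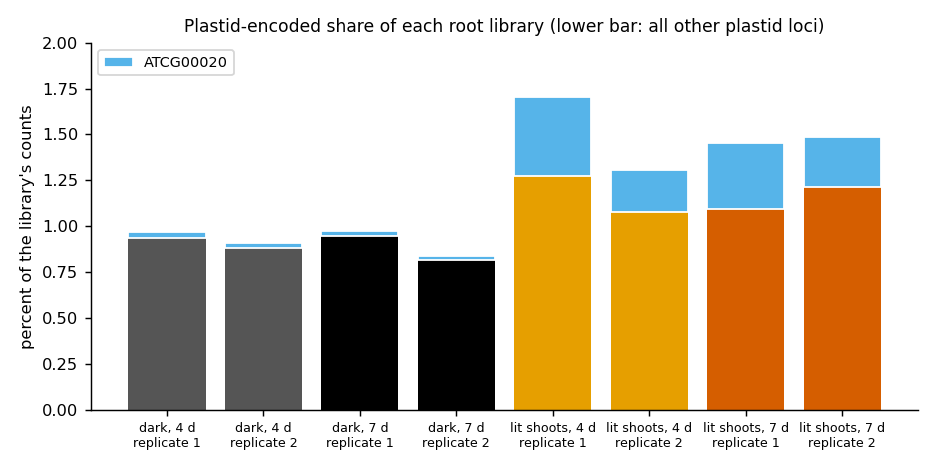
Percent of each library's counts that fell on plastid-encoded loci, with ATCG00020 in blue and all other plastid loci below it, for 2 libraries in each of the 4 groups. The 4 lit libraries reach 1.31% to 1.71% and the 4 dark libraries 0.840% to 0.975%.

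Which loci took the most counts differed between the groups. In the dark at 4 days ATCG00500 led with 9.95% of the plastid counts, followed by ATCG00670 with 8.22% and ATCG00490 with 7.49%. In the dark at 7 days the same loci led in another order, ATCG00670 with 6.90%, ATCG00500 with 5.91% and ATCG00490 with 5.56%. With lit shoots ATCG00020 led at both days with 21.5%, and ATCG00490 came next with 8.03% at 4 days and 7.67% at 7 days. The 10 leading loci of each group together held 46.6% and 38.9% of the plastid counts in the dark at 4 and 7 days, and 59.2% and 57.2% with lit shoots. Over all 8 libraries 1 member averaged over 1000 CPM, 35 averaged 100 to 1000 CPM, 39 averaged 10 to 100 CPM, 8 averaged 1 to 10 CPM and 8 were under 1 CPM.

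With lit shoots some plastid loci rose and others fell. Of the 91 members, 89 passed the filter on low counts and were tested with edgeR's quasi-likelihood test in 1 fit over all 20936 loci kept. A locus is called higher or lower where its p-value, adjusted by Benjamini-Hochberg over those loci, was below 0.05. At 4 days 21 members were called higher and 7 lower with lit shoots, where 30.5% of all tested loci were called higher and 26.6% lower. That is 23.6% and 7.87% of the tested members, both below the background. At 7 days 22 were called higher and 20 lower, or 24.7% and 22.5%, against 36.2% and 32.8% of all loci. The median log2 fold change of the members was 0.18 at 4 days and 0.02 at 7 days, beside 0.06 over all tested loci at both days.

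These counts rest on the scaling of the libraries. The median over all loci moved up by 0.20 at 4 days and 0.17 at 7 days on the log2 scale when library totals alone set the scale, and members called higher and lower then numbered 36 and 3 at 4 days and 28 and 10 at 7 days. Over all loci that scaling called 7905 higher and 4042 lower at 4 days, where the main scaling called 6385 and 5559. Single libraries mattered as well. Members called higher at 4 days numbered 12 without the second dark library of that day and 11 without the first lit one, and members called lower at 7 days numbered 9 without the first dark library of that day and 11 without the first lit one. Members called lower at 4 days numbered 3 without the first dark library of that day, 3 and 2 without the first and the second lit one, and 12 without either dark library of 7 days.

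**Figure D3:**
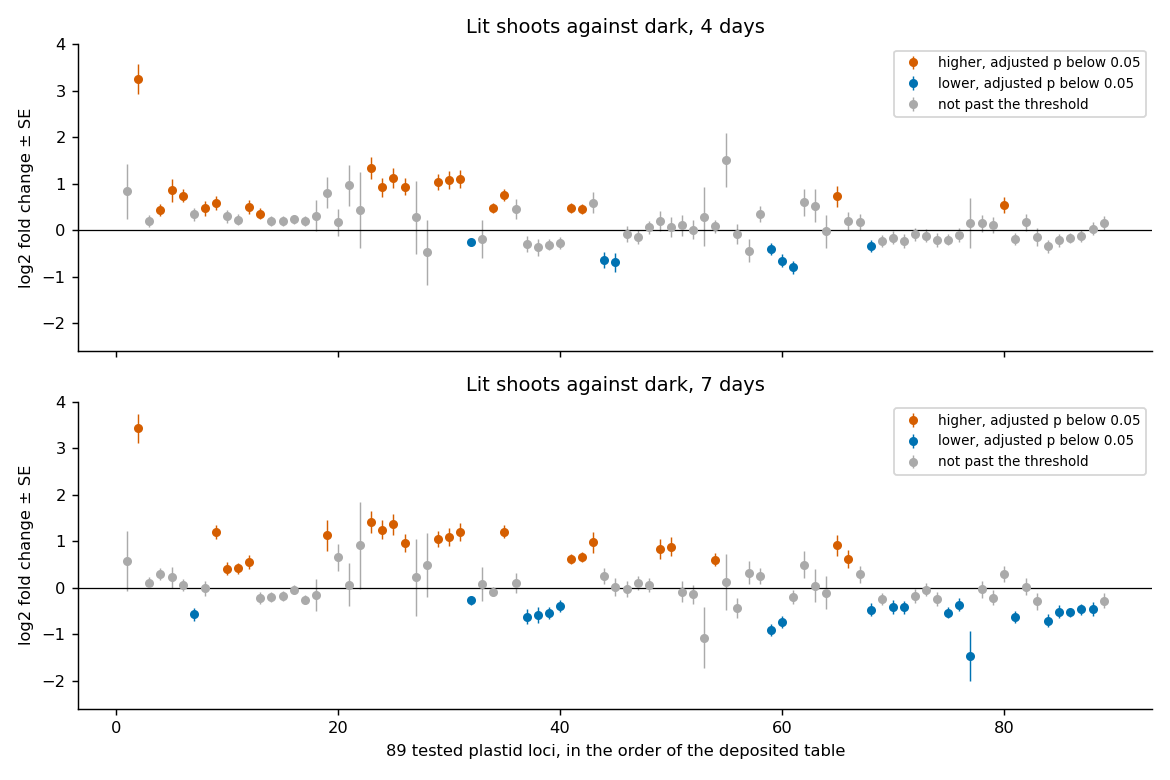
Log2 fold change (lit shoots against dark) with its standard error for the 89 tested plastid loci, in the order of the deposited table, at 4 days (upper panel, 21 higher and 7 lower) and 7 days (lower panel, 22 higher and 20 lower). The point far above the others is ATCG00020, at 3.25 and 3.42, and called loci tend to stand beside loci called the same way.

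ATCG00020 had the largest rise of any tested member at both days. At 4 days it stood at 363 and 302 CPM in the dark and at 4146 and 2160 CPM with lit shoots. At 7 days it stood at 281 and 267 CPM in the dark and at 3390 and 2493 CPM with lit shoots. The lowest lit library was far above the highest dark one, and the lit libraries of 4 days also lay far apart. The log2 fold change was 3.25 ± 0.32 (SE) at 4 days, or 9.49-fold, with an edgeR adjusted p of 0.000114. At 7 days it was 3.42 ± 0.32, or 10.7-fold, with an edgeR adjusted p of 3.63e-05. Leaving out each library in turn gave 2.70 to 3.64 at 4 days and 3.19 to 3.63 at 7 days. Neither age comparison of ATCG00020 passed the threshold, with a log2 fold change of -0.28 ± 0.29 in the dark and -0.10 ± 0.29 with lit shoots.

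A first stretch of neighbouring loci that rose at both days was ATCG00270, ATCG00280, ATCG00290 and ATCG00300. Their log2 fold changes ran from 0.92 to 1.34 at 4 days and from 0.96 to 1.41 at 7 days. ATCG00270 stood at 64.8 and 51.1 CPM in the dark at 4 days, against 185 and 107 CPM with lit shoots. At 7 days it stood at 55.3 and 52.6 CPM in the dark, against 147 and 140 CPM with lit shoots. No lit library reached down to a dark one, and the rise was 2.52-fold and 2.66-fold (edgeR adjusted p = 0.00213 and 0.00108). Without the first lit library of 4 days the 4-day log2 fold change of ATCG00270 was 0.89 in place of 1.34. ATCG00280 took more counts, with 210 and 208 CPM in the dark and 491 and 302 CPM with lit shoots at 4 days. At 7 days it held 159 and 134 CPM in the dark and 351 and 342 CPM with lit shoots, a rise of 2.37-fold (edgeR adjusted p = 0.000722). ATCG00290 took few counts, 5.29 to 6.88 CPM in the 4 dark libraries and 10.9 to 15.6 CPM in the 4 lit ones, and still rose 2.17-fold and 2.57-fold.

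A second stretch was ATCG00330, ATCG00340 and ATCG00350, which rose by 1.04 to 1.10 on the log2 scale at 4 days and by 1.05 to 1.19 at 7 days. ATCG00340 stood at 396 and 405 CPM in the dark at 4 days and at 1017 and 677 CPM with lit shoots. At 7 days it stood at 332 and 282 CPM in the dark and at 646 and 662 CPM with lit shoots. The rise was 2.11-fold at 4 days and 2.13-fold at 7 days (edgeR adjusted p = 0.00127 and 0.000754). ATCG00350, its neighbour, went the same way, from 332 and 343 CPM to 884 and 564 CPM at 4 days and from 280 and 238 CPM to 586 and 597 CPM at 7 days. For all 3 loci the first lit library of 4 days was the highest of the 8, and it was the library with the largest plastid share.

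The other 6 members called higher at both days were ATCG00100, ATCG00140, ATCG00400, ATCG00470, ATCG00480 and ATCG00710. Of these ATCG00100 rose most at 7 days, from 26.2 and 24.3 CPM in the dark to 51.6 and 64.8 CPM with lit shoots, or 2.31-fold (edgeR adjusted p = 0.000112). At 4 days its rise was 1.50-fold, from 26.6 and 23.6 CPM to 41.1 and 34.0 CPM. ATCG00400 had the smallest adjusted p after ATCG00020 at 7 days, 7.72e-05 in edgeR, with a rise of 2.31-fold. For ATCG00480, leaving out each library in turn gave 0.36 to 0.55 on the log2 scale at 4 days. With each library scaled to its own plastid counts, the 4-day value of ATCG00480 was -0.0055 and was not called.

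At 4 days ATCG00670, the Clp protease subunit, fell from 911 and 770 CPM in the dark to 504 and 463 CPM with lit shoots. The log2 fold change was -0.80 ± 0.14 (edgeR adjusted p = 0.00155). At 7 days its dark libraries had 722 and 591 CPM and its lit ones 557 and 588 CPM, a log2 fold change of -0.20 ± 0.14 that did not pass the threshold (edgeR adjusted p = 0.242). Its neighbours in the table also fell at 4 days, ATCG00660 by 0.40 and ATCG00065 by 0.65 on the log2 scale. When library totals alone set the scale, ATCG00660 was at -0.20 at 4 days and was not called (edgeR adjusted p = 0.195). Both neighbours fell at 7 days too. ATCG00660, the ribosomal protein L20, went from 294 and 229 CPM in the dark to 134 and 144 CPM with lit shoots at 7 days, a change of -0.91 ± 0.13 on the log2 scale (edgeR adjusted p = 0.000282). ATCG00065 went from 121 and 93.6 CPM to 58.9 and 69.7 CPM, a change of -0.74 ± 0.14 on the log2 scale (edgeR adjusted p = 0.00129). The 4-day call of ATCG00660 was lost without the first dark library of that day (-0.44, edgeR adjusted p = 0.0714) and without the first or the second lit one (-0.37 and -0.42, edgeR adjusted p = 0.126 and 0.0963).

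Another pair of neighbours, ATCG00500 and ATCG00510, fell at 4 days. ATCG00500 stood at 1015 and 1017 CPM in the dark, its highest levels in any library, and at 683 and 627 CPM with lit shoots (log2 fold change -0.63 ± 0.17, edgeR adjusted p = 0.0117). ATCG00510 stood at 231 and 206 CPM in the dark and at 132 and 138 CPM with lit shoots (log2 fold change -0.69 ± 0.20, edgeR adjusted p = 0.0172). With library totals ATCG00510 was at -0.49 and was not called (edgeR adjusted p = 0.0536). The call of ATCG00500 was lost without the second lit library of that day (-0.57, edgeR adjusted p = 0.0839). That of ATCG00510 was lost without the first dark library (edgeR adjusted p = 0.0614) and without either lit one (0.0866 and 0.0708), at -0.72 to -0.66. At 7 days the groups overlapped for both loci. The remaining members called lower at 4 days were ATCG00360 and ATCG00740, which were also called lower at 7 days. At 7 days the falls included a stretch of 4 loci from ATCG00420 to ATCG00450, by 0.40 to 0.63 on the log2 scale, and one of 5 from ATCG01080 to ATCG01120, by 0.45 to 0.71. ATCG01080 went from 78.2 and 64.4 CPM to 42.0 and 45.4 CPM, ATCG01050 from 253 and 213 CPM to 150 and 151 CPM, and ATCG00420 from 23.5 and 19.8 CPM to 12.6 and 15.5 CPM. The call of ATCG00420 was lost without the first dark library of 7 days (-0.51, edgeR adjusted p = 0.0506) and without the first lit one (-0.48, edgeR adjusted p = 0.0522).

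Falls at 7 days, of -1.46 to -0.36 on the log2 scale, were also called for ATCG00810, ATCG00820 and ATCG01000. These follow each other among the tested loci, but the run of 18 loci from ATCG00830 to ATCG00990 lies between ATCG00820 and ATCG01000. ATCG00810 went from 128 and 119 CPM in the dark to 76.2 and 93.9 CPM with lit shoots. ATCG01000, named after its values were seen, had the most negative value of the called members and few counts, 407 in all. It stood at 4.46 and 2.06 CPM in the dark and at 1.35 and 1.02 CPM with lit shoots at 7 days, a change of -1.46 ± 0.53 on the log2 scale (edgeR adjusted p = 0.0361). Without the first dark library of 7 days it was at -0.81 (edgeR adjusted p = 0.275). Without the first or the second lit library it was at -1.66 and -1.26 (edgeR adjusted p = 0.072 and 0.15), and the call was also lost with library totals (0.0582).

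**Figure D4:**
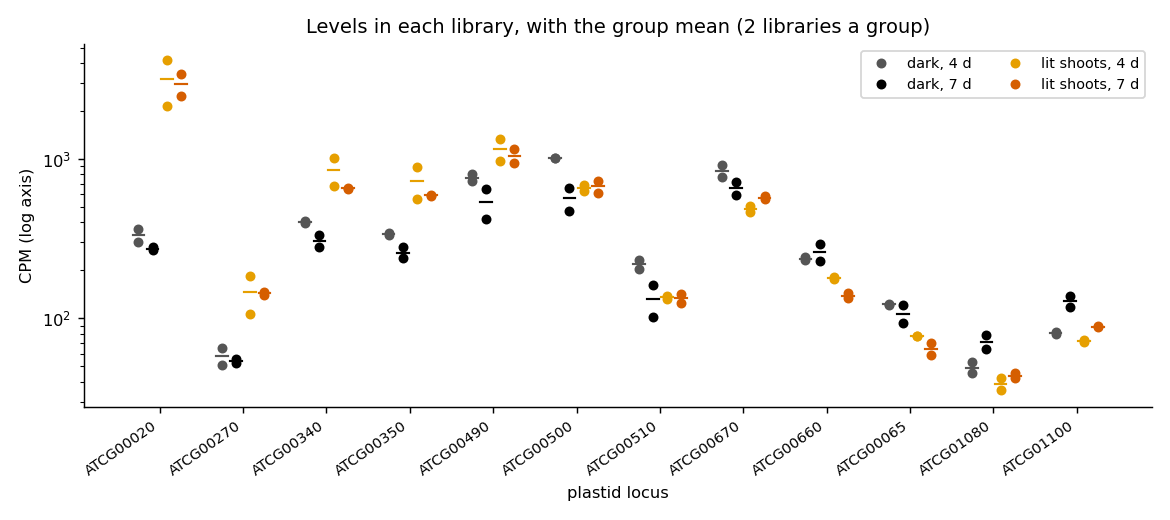
CPM (log axis) in each library for 12 plastid loci that the text describes, with 2 points a group and a line at their mean. ATCG00020 lies between 267 and 363 CPM in the dark libraries and between 2160 and 4146 CPM in the lit ones, ATCG00500 is highest in the dark at 4 days, and ATCG01100 is highest in the dark at 7 days.

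The 4-day and 7-day light comparisons share no library. Over the 89 tested members their log2 fold changes had the same sign in 66, with a Pearson correlation of 0.75. This value is given as a description, because loci transcribed together are not independent. ATCG00020, at 3.25 and 3.42, lies far from the other members and can raise the correlation. It was not computed without ATCG00020. In all, 14 members were called higher at both days, 4 lower at both days, and none higher at one day and lower at the other. That is 15.7% and 4.49% of the tested members, where 25.6% of all tested loci were called higher and 23% lower at both days. A further 7 were called higher at 4 days alone, 8 higher at 7 days alone, 3 lower at 4 days alone and 16 lower at 7 days alone. That is 7.87%, 8.99%, 3.37% and 18% of the tested members, beside 4.59%, 10.3%, 3.21% and 9.53% of all tested loci. Being past the threshold on 1 day alone does not show a difference between the days, and the light by day interaction was called for 1 member of the 3, for 2 of the 7, for none of the 8 and for 1 of the 16. The other 37 tested members (41.6%, beside 23.2% of all tested loci) were called at neither day. Their log2 fold changes ran from -0.48 to 1.50 at 4 days and from -1.07 to 0.91 at 7 days. The highest value at 4 days belonged to ATCG00620, which had 98 counts in all, and the lowest at 7 days to ATCG00590, whose replicates lay far apart.

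Relative to the plastid total the picture was different. When each library was scaled to its own plastid counts, which moved the median over all loci by -0.46 at 4 days and -0.54 at 7 days, 5 members were called higher and 28 lower at 4 days. All 5 were among the 21 called higher before, and all 7 earlier falls were among the 28. They were ATCG00020, ATCG00270, ATCG00330, ATCG00340 and ATCG00350. At 7 days 9 were called higher, the same 5 with ATCG00100, ATCG00280, ATCG00290 and ATCG00400, and 40 were called lower. ATCG00020 then stood at 2.73 and 2.89 on the log2 scale, ATCG00270 at 0.83 and 0.87, and ATCG00340 at 0.58 and 0.57. Since ATCG00020 is itself a large part of the plastid total in lit libraries, this scaling lowers every other locus there.

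With age in the dark 14 members rose and 2 fell, or 15.7% and 2.25% of those tested, where 13.3% of all loci were called higher and 18.3% lower. Of the rises, 7 stood side by side, in the loci from ATCG01050 to ATCG01110, which rose by 0.41 to 0.66 on the log2 scale. ATCG01100 stood at 82.6 and 79.5 CPM at 4 days and at 138 and 118 CPM at 7 days, with no overlap, a change of 0.66 ± 0.10 on the log2 scale (edgeR adjusted p = 0.00241). ATCG01090 rose from 33.9 and 33.4 CPM to 59.2 and 44.7 CPM, and ATCG01070 from 31.9 and 21.6 CPM to 43.8 and 37.3 CPM. Outside that stretch ATCG00050 rose from 3.82 and 2.77 CPM to 6.14 and 5.30 CPM, and ATCG00650 from 15.8 and 11.9 CPM to 24.2 and 18.8 CPM. The other rises were those of ATCG00090, ATCG00160, ATCG00180, ATCG00190 and ATCG00380, by 0.30 to 0.53.

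The 2 falls with age in the dark were ATCG00500 and ATCG00510. ATCG00500 went from 1015 and 1017 CPM to 659 and 472 CPM, a change of -0.85 ± 0.17 on the log2 scale (edgeR adjusted p = 0.00709). ATCG00510 went from 231 and 206 CPM to 163 and 102 CPM, a change of -0.72 ± 0.20 on the log2 scale (edgeR adjusted p = 0.0265). The call of ATCG00510 was lost without the first or the second dark library of 4 days (-0.64 and -0.82, edgeR adjusted p = 0.108 and 0.058) and without the second of 7 days (-0.43, edgeR adjusted p = 0.0672), and without the first of 7 days it was at -1.13. The count of rises depended on single libraries as well. It was 2 without the second dark library of 4 days, 2 without the first of 7 days, and 8 without the first dark library of 4 days or without either lit library of 4 days. Of the rises given above, ATCG00650 and ATCG01090 were at 0.42 and 0.59 without the second dark library of 4 days (edgeR adjusted p = 0.169 and 0.0604) and at 0.41 and 0.38 without the first of 7 days (0.19 and 0.0653). ATCG01070 was at 0.32 and 0.45 without these libraries (0.242 and 0.234) and at 0.90 without the first dark library of 4 days, where it was called. It was not called without any 1 of the other 5 libraries. ATCG00050 was at 0.55 and 0.65 without the same 2 libraries (0.19 and 0.165), and was not called without the second dark library of 7 days or either lit library of 4 days.

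With lit shoots few plastid loci were called between 4 and 7 days, as were few loci at large. Of the tested members 2 were called higher and 0 lower, or 2.25% and 0%, where 2.13% of all loci were called higher and 2.1% lower. No member was called lower in the main edgeR fit. DESeq2 called 2 lower, and edgeR called 7 lower with no filter and 1 with the replicate block. ATCG00600 rose from 12.8 and 11.4 CPM to 21.8 and 21.2 CPM, a change of 0.83 ± 0.14 on the log2 scale (edgeR adjusted p = 0.0202). ATCG00100 rose from 41.1 and 34.0 CPM to 51.6 and 64.8 CPM, a change of 0.63 ± 0.15 on the log2 scale (edgeR adjusted p = 0.0494). Without the first or the second lit library of 4 days ATCG00600 was at 0.92 and 0.75 (edgeR adjusted p = 0.136 and 0.142) and ATCG00100 at 0.78 and 0.50 (0.181 and 0.275). ATCG00600 was also not called without the first lit library of 7 days (0.82, edgeR adjusted p = 0.0649). ATCG00100 was not called without the second lit library of 7 days (0.46, edgeR adjusted p = 0.12), without either dark one (0.67, edgeR adjusted p = 0.0601 and 0.0604) or with the replicate block (0.64, edgeR adjusted p = 0.0561).

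**Figure D5:**
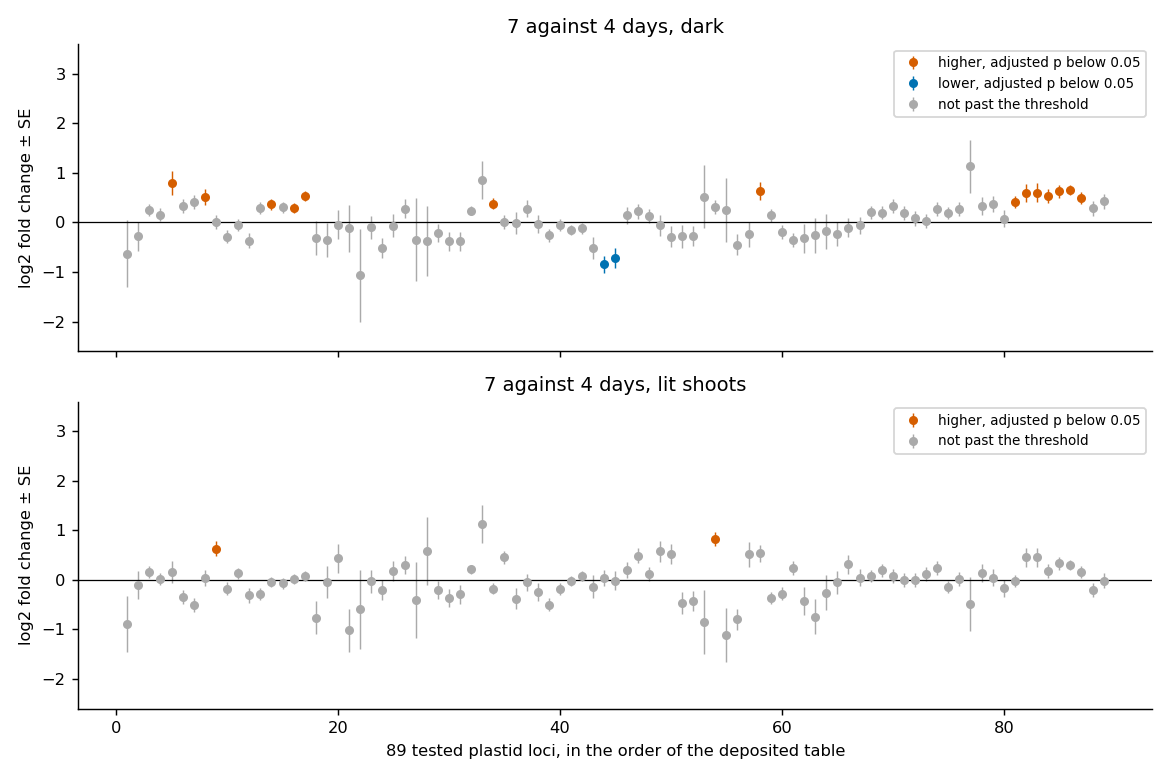
Log2 fold change (7 against 4 days) with its standard error for the 89 tested plastid loci, in the order of the deposited table, in the dark (upper panel, 14 higher and 2 lower) and with lit shoots (lower panel, 2 higher and none lower). In the dark panel the 7 neighbouring loci from ATCG01050 to ATCG01110 stand together above 0.

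Whether the light effect differed between the days was tested as an interaction, the log2 light effect at 7 days minus that at 4 days. It was called for 1 member in the positive and 3 in the negative direction, or 1.12% and 3.37%, where 9.03% and 5.57% of all loci were called. ATCG00500 was the positive one, at 0.88 ± 0.24 (edgeR adjusted p = 0.042), and it was lower with lit shoots at 4 days while its groups overlapped at 7 days. ATCG00080 had the most negative value, -0.91 ± 0.20 (edgeR adjusted p = 0.0192). It stood at 30.0 and 27.6 CPM in the dark and 40.1 and 32.8 CPM with lit shoots at 4 days, and at 41.7 and 34.5 CPM in the dark and 25.7 and 25.6 CPM with lit shoots at 7 days. Its lit libraries thus lay above the dark ones at 4 days and below them at 7 days. ATCG00070 and ATCG00380 were called with -0.69 ± 0.19 and -0.56 ± 0.15 (edgeR adjusted p = 0.0477 and 0.0408). The calls of ATCG00500, ATCG00070 and ATCG00380 were lost in most fits with 1 library left out, and that of ATCG00080 in some. When nuclear loci alone set the scale, ATCG00070 and ATCG00380 were not called (-0.63 and -0.50, edgeR adjusted p = 0.0624 and 0.0554). None of the 4 calls was made relative to the plastid total.

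Neighbouring loci moved alike in some comparisons and not in others. Pairs were formed of tested members that follow each other in the table, with untested loci passed over. Over these 88 pairs the Pearson correlation between the log2 fold changes was 0.35 for light at 4 days and 0.40 at 7 days. For age in the dark it was 0.53. It was 0.03 for age with lit shoots and 0.15 for the interaction. Reads that reach over 2 adjoining loci, and overlapping loci on opposite strands, could add to such likeness, and how they were counted is not given in the sources used here.

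Of the 5 members that a reference note names, 3 were described above in part. ATCG00750, the ribosomal protein S11, held 101 and 95.7 CPM in the dark and 85.4 and 82.3 CPM with lit shoots at 4 days, with a log2 fold change of -0.23 ± 0.13 that did not pass the threshold (edgeR adjusted p = 0.168). At 7 days its groups overlapped. ATCG00530 held 130 and 116 CPM in the dark and 118 and 104 CPM with lit shoots at 4 days, and its groups overlapped at both days. ATCG00430 held 43.1 and 30.5 CPM in the dark and 22.3 and 26.9 CPM with lit shoots at 7 days, with a change of -0.58 ± 0.18 on the log2 scale (edgeR adjusted p = 0.0177). This call was lost without the first dark library of 7 days (-0.32, edgeR adjusted p = 0.127), without the first lit one (-0.45, edgeR adjusted p = 0.0973) and with library totals (-0.41, edgeR adjusted p = 0.0596). Both ribosomal protein loci therefore had negative light values, of which the L20 locus alone passed the threshold, and the difference between the 2 loci was not tested.

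Members differed in how they followed the plastid total over the 8 libraries. Among members with an average log2 CPM of at least 2, ATCG00710 followed it most closely, with a Pearson correlation of 0.99 between log2 values, followed by ATCG00330 with 0.98 and ATCG00350 with 0.97. ATCG00740, ATCG00660 and ATCG00360 went the other way, with -0.73 each after rounding. The total holds each locus itself and is swayed by ATCG00020, and the 8 libraries fall into dark and lit ones, so that these values largely restate the light effect. ATCG00020 varied most relative to the total among loci with many counts, from 2.70% to 25.3% of the plastid counts. ATCG00470 varied little, from 0.621% to 0.762%.

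Some pairs of loci had nearly the same counts in every library. The closest pair was ATCG01100 and ATCG01110, with 2031 and 2057 counts in the first dark library of 4 days and 3459 and 3333 in the first of 7 days. The pairs ATCG00770 with ATCG00780 and ATCG00430 with ATCG00450 also lie close together in the table. The pairs ATCG00160 with ATCG00380 and ATCG00740 with ATCG01050 do not. Among loci with an average log2 CPM of at least 2, replicates differed most at ATCG00590, with 12.3 and 3.76 CPM in the dark at 4 days, then at ATCG00690 in the dark at 7 days and at ATCG00210 with lit shoots at 4 days.

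Nuclear genes that serve the plastid are given beside these results. Of 10 tested nuclear genes for photosynthetic subunits (13 listed), all 10 rose with lit shoots at 4 days and 8 at 7 days, with none lower, where 30.5% and 36.2% of all tested loci were called higher. PSBR, a photosystem II subunit, went from 5.25 ± 0.75 CPM in the dark to 52.4 ± 2.50 CPM with lit shoots at 4 days (SD, n = 2). The 13 genes together summed to 31.3 to 53.5 CPM in the dark libraries, 299 and 196 CPM with lit shoots at 4 days, and 93.7 and 136 CPM with lit shoots at 7 days. In contrast to the plastid share, this sum was lower at 7 than at 4 days in both lit libraries. The lit libraries of 4 days lay far apart at RBCS1A, with 59.3 CPM in the first and 13.0 CPM in the second. RBCS3B stood at 7.03 and 0.0343 CPM, and ATPD alone was lower in the first, at 10.6 and 10.8 CPM. The first was also the library with the largest plastid share, and the part of its make-up in the 4-day results was not tested. Of 29 nuclear genes for plastid ribosomal proteins 10 rose and 2 fell at 4 days, and 11 rose and 4 fell at 7 days. The rises are 34.5% and 37.9% of that list, near the shares of all loci. The falls are 6.9% and 13.8% of it, below the 26.6% and 32.8% of all loci. EMB3126 took the most counts of these and fell at both days, by 0.55 and 1.43 on the log2 scale.

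Genes of plastid transcription moved in the dark as well. Of 13 nuclear genes for proteins that associate with the plastid polymerase, 7 rose and none fell with age in the dark, 5 rose and none fell with lit shoots at 4 days, and 1 rose and 6 fell with lit shoots at 7 days. Of all tested loci 13.3% were called higher with age in the dark, 30.5% higher at 4 days and 32.8% lower at 7 days, beside 53.8%, 38.5% and 46.2% of these genes. The interaction was called negative for 5 of them, or 38.5%, beside 5.57% of all loci. PDE312 rose with age in the dark by 1.57 on the log2 scale, and was higher with lit shoots at 4 days by 0.88 and lower at 7 days, at -0.79. Of 9 sigma factors and phage-type polymerases 3 rose with age in the dark, and these were all 3 phage-type polymerases. That is 33.3% of the list, beside 13.3% of all loci. With lit shoots 2 of the 9 rose and 1 fell at 4 days, and none rose and 4 fell at 7 days. The 4-day rises and falls are 22.2% and 11.1% of the list, below the 30.5% and 26.6% of all loci. The 7-day falls are 44.4% of the list, beside 32.8% of all loci. The interaction was called negative for 3 (33.3%), beside 5.57% of all loci. SIG4, a sigma factor with few counts, was lower with lit shoots at both days, at -2.99 and -3.98 on the log2 scale. SCA3, the polymerase of the plastid, stood at 16.6 CPM at 4 days and 47.0 CPM at 7 days in the dark, and at 18.9 and 19.0 CPM with lit shoots. AT5G15700, whose product serves both organelles, rose in the dark by 1.67 on the log2 scale, and MGP3, the mitochondrial polymerase, by 0.92. None of these genes was set against a plastid locus in a test.

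Of 14 nuclear genes for RNA binding, processing and stability in the plastid, 8 rose and 1 fell with lit shoots at 4 days, and 5 rose and 4 fell at 7 days. The rises are 57.1% and 35.7% of the list, beside 30.5% and 36.2% of all loci, so that the share at 7 days was near the background. The falls are 7.14% and 28.6% of the list, beside 26.6% and 32.8% of all loci. HCF173, known to be needed for translation of a photosystem II core protein, rose by 1.59 and 1.53 on the log2 scale (edgeR adjusted p = 9.04e-05 and 4.29e-05). RIF10, a ribonuclease of the plastid, rose with age in the dark by 0.60 and was lower with lit shoots at 7 days, at -0.76. CP29, an RNA-binding protein, rose with lit shoots at 4 days by 0.61 and was at -0.32 at 7 days, which did not pass the threshold (edgeR adjusted p = 0.0668).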

How the data were processed

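Whole-number read counts per locus had been deposited by the authors for 8 libraries. TopHat2 and Subread were used, per the submitters' processing notes, with Trim Galore, FastQC and CASAVA 1.8.2, on TAIR10. How strand and reads with several matches were handled is not given in the sources used here.

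From these counts, loci with too few reads were removed (filterByExpr, minimum count 10, minimum total 15), which left 20936. TMM factors ran from 0.912 to 1.09. edgeR 4.0.16 (R 4.3.3) was fitted once over all 8 libraries with 1 coefficient per group, by glmQLFit (robust) and glmQLFTest, which left 4 residual degrees of freedom. Benjamini-Hochberg adjustment of the p-values took in all loci kept, with a threshold of 0.05. CPM values use the same factors. Alternatives used DESeq2 1.42.0, other scalings, no filter, a replicate block and each library left out. The 2 samples a group are independent pools of seedlings. Each p-value sets a difference between groups against the spread between such pools. That spread was estimated from all 4 groups together and moderated with the other loci.

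The members and the nuclear gene lists were chosen with earlier results of these data known. Members were named by rule. The rule took the 10 with the highest mean CPM, the 5 largest called rises and falls of each comparison without overlap, called interactions, the neighbours of the count limit, the replicates furthest apart, the closest pairs and the 4 leading genes of each nuclear list. Which of the leading genes of each nuclear list are described was not set by this rule. Of the nuclear genes with high mean CPM left out, MURE (17.2 CPM) and SIGE (24.5 CPM) were called in no comparison. AT2G37220 (61.8 CPM), of the RNA-binding list, was called higher with lit shoots at both days. Other members, runs of 3 or more called neighbours, and the limit of 20 counts for low runs were picked after the values were seen. No sequence is printed, because the tables used do not pair these identifiers with sequences.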

Additional observations from a re-analysis of the deposited data

Results flagged for a closer look

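For 4 plastid-encoded loci the light effect differed between 4 and 7 days by the test of the interaction itself. The positive call is 1.12% and the negative ones are 3.37% of the tested members, beside 9.03% and 5.57% of all loci. The log2 estimate (7 days minus 4 days) was 0.882 for ATCG00500, -0.912 for ATCG00080, -0.686 for ATCG00070 and -0.555 for ATCG00380, with edgeR adjusted p-values of 0.042, 0.0192, 0.0477 and 0.0408. Leaving out each library in turn gave 0.70 to 1.21 for ATCG00500 and -1.05 to -0.70 for ATCG00080. The same fits gave -0.85 to -0.49 for ATCG00070 and -0.67 to -0.44 for ATCG00380. ATCG00500, ATCG00070 and ATCG00380 lost their calls in most of these fits, and ATCG00080 in some. None of the 4 was called relative to the plastid total, and ATCG00070 and ATCG00380 were not called when nuclear loci alone set the scale. Groups of 2 libraries are too small for a search for single outlying samples.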

How the results depend on the processing

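At 4 days the members that were called up and down under lit shoots numbered 36 and 3 when library totals alone set the scale, and 5 and 28 relative to the plastid total. At 7 days library totals gave 10 lower, and the plastid total gave 9 higher and 40 lower. Age in the dark gave 8 higher relative to the plastid total and 8 lower with no filter. Age with lit shoots gave 1 higher relative to the plastid total, 10 higher and 7 lower with no filter, and 2 lower with DESeq2. The interaction gave 0 positive and 1 negative relative to the plastid total, 7 and 6 with no filter, 2 positive with DESeq2 and 1 negative when nuclear loci alone set the scale. The replicate block gave 24 higher and 6 lower at 4 days, 24 and 20 at 7 days, 15 and 2 for age in the dark, 2 and 1 for age under lit shoots, and for the interaction 2 and 3. The labels do not say that replicate numbers mark a shared batch, and same-numbered libraries deviated together with correlations of 0.01 to 0.09 over all loci and of -0.11 to 0.41 over the members, which do not show that the numbers pair the libraries. Of the members called higher for age under lit shoots, 1 of the 2 was shared with the block.

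Leaving out each library in turn gave 11 to 23 higher and 2 to 12 lower at 4 days, 15 to 24 and 9 to 25 at 7 days, 2 to 13 and 1 to 4 for age in the dark, 0 to 2 and 0 to 0 for age under lit shoots, and for the interaction 0 to 3 and 0 to 2. The plastid share with nuclear counts as denominator was 1.05% in the dark at 4 days and 1.57% with lit shoots at 7 days, and without ATCG00020 it was 1.18% and 1.15% with lit shoots at 4 and 7 days. Some small values changed sign. Relative to the plastid total these were ATCG00040 (-0.014 and -0.23 at 4 and 7 days), ATCG00120 (-0.17 and -0.11), ATCG00480 (-0.0055 at 4 days), and at 7 days ATCG00500 (-0.27), ATCG00530 (-0.41) and ATCG00680 (-0.0036). Leaving out each library gave -0.0043 to 0.50 for ATCG00500 and -0.11 to 0.31 for ATCG00530 at 7 days, below 0 without the second dark library of that day. With library totals ATCG00530 was at 0.045 at 4 days. The cause was not tested. Groups of loci by role, and a fit without ribosomal and transfer RNA loci, were not run because the identifiers are not paired with names. With 2 libraries a group and 4 residual degrees of freedom, small differences can be missed.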
